A study of Mus musculus with 8 samples.

Results

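Chemokines are small secreted proteins that direct the movement of leukocytes, and chemokine receptors are the cell-surface proteins through which leukocytes sense them. The genes described here are those in the deposited count table whose symbols follow the chemokine naming scheme: Ccl, Cxcl and Xcl ligands, Ccr, Cxcr and Xcr receptors and Ackr atypical receptors, each with its number, the pair *Cx3cl1* and *Cx3cr1*, and *Ccrl2*. The rule found 54 of 15859 genes. Of these, 32 encode ligands, 17 encode receptors and 5 encode atypical receptors, which bind chemokines without driving migration. Each gene was placed in a group by the leukocyte it mainly attracts or marks.

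The samples are bulk polyA RNA of distal colon tissue, taken from 8 males on a BALB/c x 129SvEV background, with 2 mice in each of 4 groups. *Hsf1*, which encodes the transcription factor heat shock factor 1, was either wild type (WT) or carried a germline null allele (*Hsf1* null). Mice of WT day 0 and of *Hsf1* null day 0 were untreated controls of matched age. Mice of WT day 15 and of *Hsf1* null day 15 had been injected with azoxymethane (AOM), a carcinogen, at 10 mg/kg and 8 weeks of age, and then drank water with 1.5% dextran sulfate sodium (DSS), a chemical that damages the gut lining, for 5 days. The labels give an age of 10 weeks for all mice, and the null allele is carried by every cell of the animal, not by a single cell type. Total counts were 9393945 and 2553348 in WT day 0, 12440257 and 2675976 in *Hsf1* null day 0, 11097367 and 9247665 in WT day 15, and 7379442 and 7593259 in *Hsf1* null day 15. Here and below, values of a group are given for replicate 1 and then replicate 2. A single count equals 0.397 CPM (counts of a gene over the normalized library total) in replicate 2 of WT day 0 and 0.0821 CPM in replicate 1 of *Hsf1* null day 0, so low levels are least precise in the replicate 2 libraries of day 0. The genotype labels were checked on *Hsf1*, which was at 40.5 and 36.5 CPM in WT day 0, 14.0 and 11.9 CPM in *Hsf1* null day 0, 50.5 and 45.9 CPM in WT day 15, and 13.5 and 9.09 CPM in *Hsf1* null day 15. All 4 WT mice lay above all 4 *Hsf1* null mice.

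A chemokine binds to sugar chains on cells and matrix near its source, and a leukocyte that carries the matching receptor, a protein that signals through a G protein, moves up the resulting gradient. Some chemokines are made at rest and place lymphocytes in mucosa and lymphoid tissue, while others are induced by cytokines such as tumor necrosis factor and interleukin 1 and recruit neutrophils, monocytes and effector lymphocytes. In the colon, epithelium, fibroblasts, endothelium and the leukocytes themselves all make chemokines, and DSS injury is known for a dense infiltrate of neutrophils and monocytes.

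At day 15, transcripts of several chemokines were more abundant in WT than in *Hsf1* null colons, above all the neutrophil attractants *Cxcl1*, *Cxcl2* and *Cxcl5*, the B cell attractant *Cxcl13*, the widely acting *Cxcl12* and the endothelial receptor *Ackr1*. A gene was called higher or lower when its adjusted p in edgeR's quasi-likelihood test was under 0.05 and its log2 fold change was above 1 in size. Below, SE stands for the standard error of a log2 fold change. By this rule 6 of the 47 tested members were higher in WT at day 15, against a background of 1.25% of all 14371 tested genes, and 0 were lower, against 1.91%. For the lower members, edgeR gave 0, DESeq2 gave 3 (*Ccl25*, *Ccl28* and *Ccl6*), and 28 members in either direction had an unadjusted p under 0.05, as did 3332 of all 14371 tested genes. DESeq2 called 19 members in either direction and 1197 of all tested genes. The 7 members not tested (*Ccl1*, *Ccl17*, *Ccl27a*, *Ccr4*, *Ccr8*, *Cxcr1* and *Xcl1*) had a mean normalized count of 5 or less. The median log2 fold change of the 47 members was 1.80, beside 0.04 over all tested genes. Without replicate 2 of WT day 15 it was 0.65, with 27 of 44 tested members above 0. In 24 of the 47 members the lower WT mouse exceeded the higher *Hsf1* null mouse, as it did in 28.6% of all tested genes. The reverse held in 4 members and in 3774 of all 14371 tested genes.

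From day 0 to day 15 in WT mice, 6 members rose, against a background of 3.47%, and 1 fell, against 4.27%. *Cxcl1*, *Cxcl2*, *Cxcl5*, *Cxcl13*, *Cxcl14* and *Ccr7* rose and *Ccl28* fell. The median log2 fold change of the members was 1.48, beside 0.005 over all tested genes. It was 0.03 without replicate 2 of WT day 15, with 22 of 44 tested members above 0, and 2.28 without replicate 1 of WT day 0. In *Hsf1* null mice, edgeR called 0 of the 47 members over the same days, where 5.3% of all tested genes were called higher and 6.48% lower, and 8 members had an unadjusted p under 0.05, as did 4686 of all 14371 tested genes. DESeq2 called 5 members and 2203 of all tested genes there, with *Cxcl14*, *Ccl22*, *Cxcl10* and *Cxcl16* higher and *Ackr3* lower. With counts thinned to the smallest library, edgeR called 4 members there, *Ackr3*, *Ccl19*, *Cxcl14* and *Cxcr3*. The members' median log2 fold change in *Hsf1* null mice was 0.57, beside 0.05 over all tested genes. It was -0.08 without replicate 2 of *Hsf1* null day 15, 0.20 and 1.03 without replicate 1 or 2 of *Hsf1* null day 0, and 0.36 without replicate 2 of WT day 15. Both comparisons with day 15 WT mice use the same libraries, and both comparisons within a genotype use a day 15 group of the genotype comparison, so they are not independent.

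Without treatment, at day 0, no member passed the rule between the genotypes: edgeR called 0 members, as it called 0% of all tested genes, 3 members had an unadjusted p under 0.05, as did 904 of all 14371 tested genes, and DESeq2 called 0 members and 18 of all tested genes. Their median log2 fold change was 0.65, beside 0.01 over all tested genes. Without replicate 1 of WT day 0 its sign turned, to -0.24, with 18 of 46 tested members above 0. The genotype difference in the response to treatment, WT change minus *Hsf1* null change, was called for 0 members by edgeR, where 0.00696% of all tested genes were called. In that test 7 members and 1239 of all 14371 tested genes had an unadjusted p under 0.05. The smallest adjusted p was 0.294, for *Cxcl13*, and DESeq2 called 3 members (*Cxcl13*, *Cxcl12* and *Ackr1*) and 130 of all tested genes. The calls seen in WT mice and not in *Hsf1* null mice were thus not shown by edgeR to differ by genotype.

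These counts rest on single libraries, some of them outside the groups compared. The *Hsf1* null day 0 libraries enter the genotype comparison at day 15 only through the shared normalization, filter and estimate of the spread. With replicate 1 or 2 of *Hsf1* null day 0 left out, the members' median log2 fold change in that comparison stayed at 1.80. The 6 calls between the genotypes at day 15 became 0 without replicate 1 or replicate 2 of *Hsf1* null day 0, without replicate 2 of WT day 15, or without replicate 1 of *Hsf1* null day 15. They became 10 without replicate 1 of WT day 15 and 9 without replicate 2 of *Hsf1* null day 15. Over all genes, the 455 calls became 12, 12, 19 and 30 without the 4 libraries that took the members' count to 0. In WT mice between the days, the 7 calls became 4 without replicate 1 of WT day 0, 0 without replicate 2 of WT day 0, 16 without replicate 1 of WT day 15 and 0 without replicate 2 of WT day 15. Fitting only the day 15 libraries gave 0 members called between the genotypes and 6 genes in all.

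**Figure D1:**
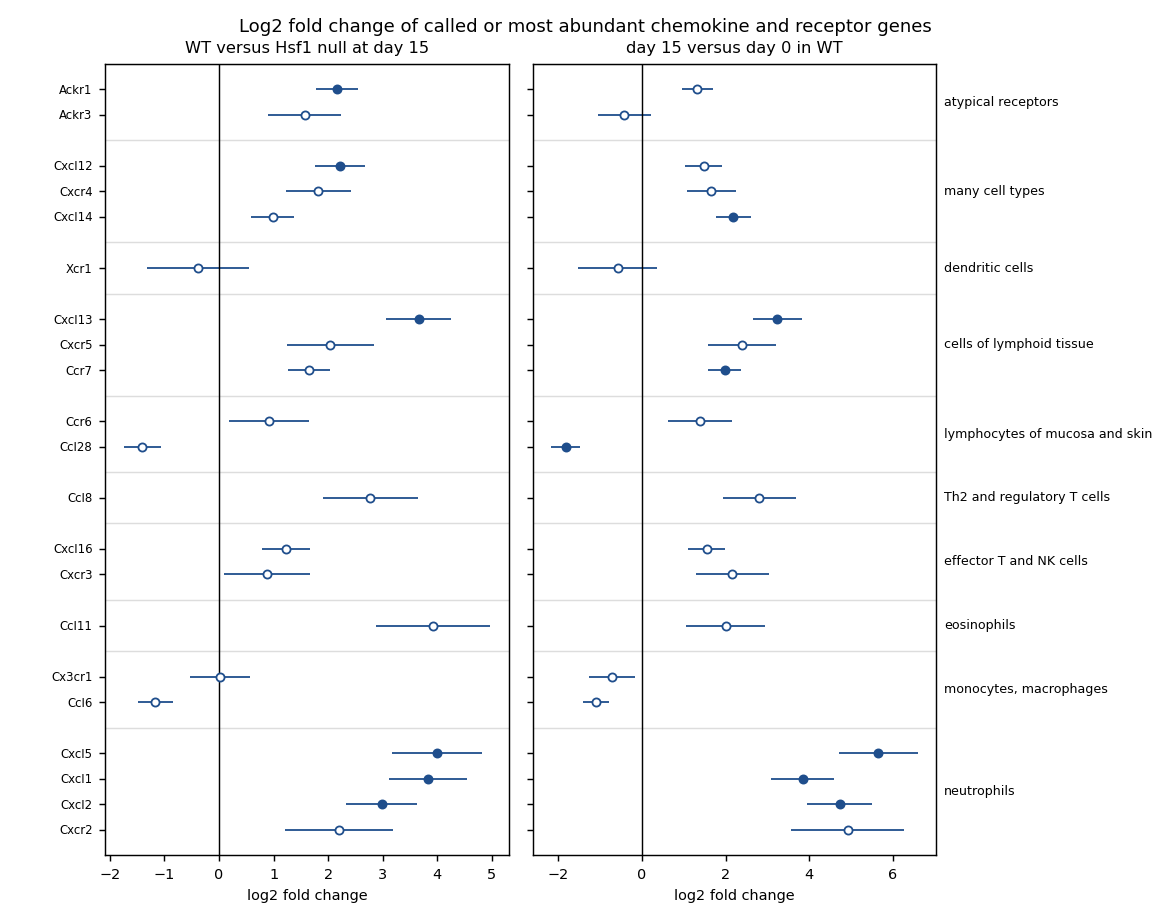
Log2 fold change (x axis) of each tested member that was called or had the highest mean CPM among the ligands or receptors of its group, by attracted leukocyte, for WT against *Hsf1* null at day 15 (left) and for day 15 against day 0 in WT (right), with 2 mice per group. Points are edgeR estimates, lines are 1 SE either side, and filled points are the 6 and 7 members called by edgeR's quasi-likelihood test.

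Per kilobase of annotated exon, the scale on which genes can be compared, the most abundant members over the 8 mice were *Ccl6* at a mean level of 131.7 CPM per kb, *Cxcl13* at 114.4, *Ccl8* at 109.2 and *Cxcl14* at 49.1. In WT day 0 the order of mean levels was *Ccl6* (143.9 CPM per kb), *Ccl8* (41.8) and *Cxcl13* (36.4), where the *Cxcl13* mean covers levels of 57 and 15.9. In WT day 15 it was *Cxcl13* (355.5 CPM per kb), *Ccl8* (291.1), *Cxcl14* (102.6) and *Ccl6* (67.0), where the *Ccl8* mean covers levels of 92.6 and 489.6. In *Hsf1* null day 15, *Ccl6* was again the most abundant at 150.4 CPM per kb, before *Cxcl14* at 51.9, whose mice were at 32.5 and 71.4. *Cxcr4* was the most abundant receptor transcript over all mice, at a mean of 23.1 CPM per kb. All member transcripts together had 954 and 782 CPM in WT day 0, 723 and 929.6 CPM in *Hsf1* null day 0, 1643 and 2432 CPM in WT day 15, and 763 and 1014 CPM in *Hsf1* null day 15. Both WT day 15 mice thus stood above the other 6 mice.

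The neutrophil group holds the ligands *Cxcl1*, *Cxcl2*, *Cxcl3* and *Cxcl5* and their receptor genes *Cxcr2* and *Cxcr1*. Its summed level was 5.59 and 1.99 CPM in WT day 0, 1.64 and 0.719 CPM in *Hsf1* null day 0, 70.5 and 188 CPM in WT day 15, and 4.19 and 15.6 CPM in *Hsf1* null day 15. All 5 tested genes had a log2 fold change above 0 between the genotypes at day 15, with a median of 2.98, and 3 were called. All 5 were also above 0 between the days in WT, with a median of 4.73, and 3 were called. Without replicate 1 of WT day 0 that median was 7.80. In *Hsf1* null mice all 5 were above 0 between the days as well, with a median of 2.92 and 0 called. At day 0 all 5 were above 0 between the genotypes, with a median of 1.435 and 0 called. Since the tissue was sequenced in bulk, more cells that hold these transcripts and more RNA per cell cannot be told apart, here and for every gene below.

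*Cxcl1*, the keratinocyte-derived chemokine, was at 1.18 and 1.19 CPM in WT day 0, 0.575 and 0 CPM in *Hsf1* null day 0, 12.9 and 21.4 CPM in WT day 15, and 0.465 and 1.87 CPM in *Hsf1* null day 15. Both WT day 15 mice stood above the other 6, while *Hsf1* null mice overlapped between the days. Its log2 fold change was 3.83 (SE 0.718, adjusted p = 0.0276 in edgeR) between the genotypes at day 15 and 3.84 (SE 0.748, adjusted p = 0.0184) between the days in WT. The genotype call was lost without replicate 1 or 2 of *Hsf1* null day 0 (adjusted p = 0.053 and 0.0526), replicate 2 of WT day 15 (0.14) or replicate 1 of *Hsf1* null day 15 (0.161). The call between the days in WT was lost without replicate 1 or 2 of WT day 0 (adjusted p = 0.0879 and 0.104) or replicate 2 of WT day 15 (0.104). Over the 18 alternatives the adjusted p of *Cxcl1* ranged from 3.83e-05 to 0.161 between the genotypes and from 5.03e-05 to 0.151 between the days in WT.

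*Cxcl2*, also called macrophage inflammatory protein 2, was at 0.392 and 0.397 CPM in WT day 0, 0.0821 and 0.359 CPM in *Hsf1* null day 0, 6.26 and 15.4 CPM in WT day 15, and 1.24 and 1.47 CPM in *Hsf1* null day 15. Day 15 mice of both genotypes lay above the day 0 mice of their genotype, and WT lay above *Hsf1* null at day 15 without overlap. In edgeR its log2 fold change was 2.98 (SE 0.644, adjusted p = 0.0414) between the genotypes at day 15 and 4.73 (SE 0.783, adjusted p = 0.0111) between the days in WT. Day 0 levels rest on 4 and 1 counts in WT and on 1 and 1 counts in *Hsf1* null mice. From pooled counts, the ratio of day 15 to day 0 was 26.5 in WT (exact 95% interval 11.2 to 82.3) and 10.2 in *Hsf1* null mice (2.46 to 90.4), and these intervals cover counting error only. Leaving out any of 7 libraries ended the genotype call, with adjusted p of 0.0518 and 0.0538 without replicate 1 or 2 of WT day 0, 0.0699 and 0.0704 without those of *Hsf1* null day 0, 0.258 without replicate 2 of WT day 15, and 0.234 and 0.0716 without those of *Hsf1* null day 15. With counts thinned to the smallest library its adjusted p was 0.145. Between the days in WT, the call was lost without replicate 1 or 2 of WT day 0 (adjusted p = 0.0653 and 0.0656) or replicate 2 of WT day 15 (0.0759). The alternatives spanned adjusted p of 0.007 to 0.258 for the genotype difference and of 0.000129 to 0.13 for the change in WT.

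*Cxcl5*, a neutrophil attractant made largely by epithelium, had the highest CPM of the group. Its level was 2.45 and 0.397 CPM in WT day 0, 0.657 and 0.359 CPM in *Hsf1* null day 0, 48.2 and 136 CPM in WT day 15, and 1.24 and 10.2 CPM in *Hsf1* null day 15. WT day 15 was higher than every other mouse, and the *Hsf1* null day 15 mice, at 8 and 76 counts, were far apart from each other. The log2 fold change in edgeR was 3.99 (SE 0.822, adjusted p = 0.0357) between the genotypes at day 15 and 5.65 (SE 0.943, adjusted p = 0.0111) between the days in WT. Over pooled counts, day 15 exceeded day 0 by a ratio of 43.0 in WT (exact 95% interval 29.3 to 66.0). In *Hsf1* null mice the ratio was 10 (5.04 to 22.7), and these intervals cover counting error only. The log2 fold change between the days in *Hsf1* null mice was 3.27, without overlap (adjusted p = 0.0713 in edgeR). It was 4.075 without replicate 1 of *Hsf1* null day 15. Without replicate 1 or 2 of *Hsf1* null day 0 the adjusted p between the genotypes was 0.0805 each time, without replicate 2 of WT day 15 it was 0.182 (log2 fold change 3.06), and without replicate 1 of *Hsf1* null day 15 it was 0.141 (3.17). The call was kept without replicate 2 of *Hsf1* null day 15, at a log2 fold change of 6.195. The rise in WT was not called without replicate 2 of WT day 0 (adjusted p = 0.0656) or replicate 2 of WT day 15 (0.0575). Adjusted p of *Cxcl5* over the alternatives lay between 0.00159 and 0.182 for the genotypes and between 0.000253 and 0.152 for the days in WT.

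*Cxcl3*, named after its values were seen because it lies among the genes above, was at 1.37 and 0 CPM in WT day 0, 0.0821 and 0 CPM in *Hsf1* null day 0, 2.17 and 5.28 CPM in WT day 15, and 0.31 and 0.669 CPM in *Hsf1* null day 15. WT exceeded *Hsf1* null at day 15 without overlap, at an adjusted p of 0.121 in edgeR. *Cxcr2*, the receptor through which these ligands act on neutrophils, was at 0.196 and 0 CPM in WT day 0, 0.164 and 0 CPM in *Hsf1* null day 0, 0.957 and 9.08 CPM in WT day 15, and 0.931 and 1.20 CPM in *Hsf1* null day 15. A single mouse, replicate 2 of WT day 15, carried the high value, and the genotypes overlapped at day 15. Between the days in WT, *Cxcr2* had a log2 fold change of 4.91 with an adjusted p of 0.0516 in edgeR. This change rests on 97 against 2 pooled counts, a ratio of 29.4 (exact 95% interval 7.93 to 246, for counting error only). It was called without replicate 1 of WT day 15 (5.76, adjusted p = 0.0149), with DESeq2's size factors (0.0496) or with no filter (0.0495), and it was 8.23 (0.169) without replicate 1 of WT day 0. *Cxcr1* had at most 9 counts in a mouse and was not tested. The coding sequences of *Cxcl1*, *Cxcl2* and *Cxcl3* are close paralogs, and reads can be split between them, so their single values are uncertain.

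**Figure D2:**
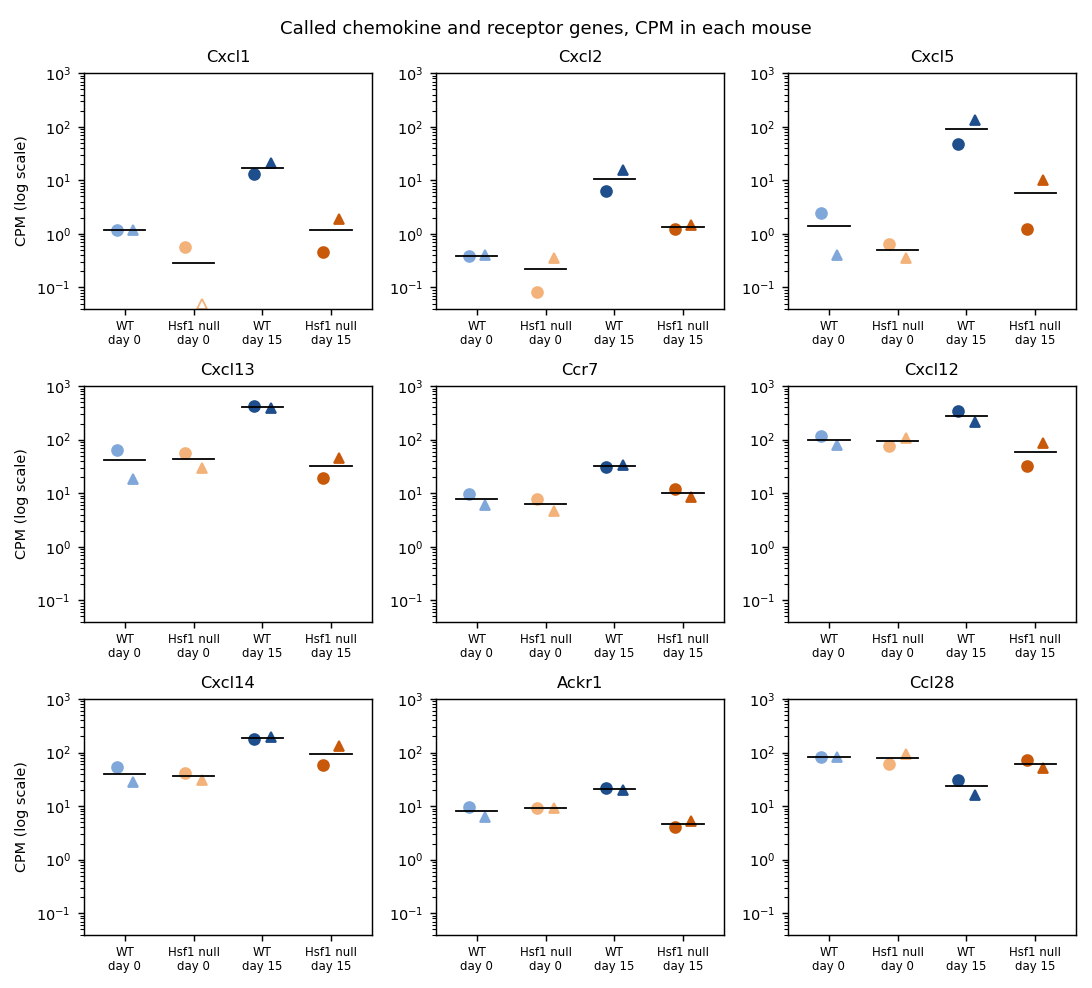
CPM (log scale, y axis) of the 9 members called in any comparison in each of the 8 mice, with circles for replicate 1, triangles for replicate 2, lines for the group mean and an open symbol at the axis for a count of 0. WT day 15 mice lie above *Hsf1* null day 15 mice in every panel except *Ccl28*, where they lie below.

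Apart from *Cd177*, marker transcripts of neutrophils were also most abundant in WT day 15. Of the 6 markers in the table, 3 (*S100a8*, *S100a9* and *Retnlg*) were called higher in WT than in *Hsf1* null mice at day 15, 5 rose in WT between the days, and 2 (*Retnlg* and *Cd177*) rose in *Hsf1* null mice. The 3 genotype calls were lost without replicate 2 of WT day 15 (adjusted p = 0.0814, 0.0814 and 0.11) or replicate 1 of *Hsf1* null day 15 (0.0677, 0.132 and 0.129), and also without either *Hsf1* null day 0 library (0.0517 to 0.053). The WT calls of *Cd177* and *Mmp8* were lost without replicate 2 of WT day 0 (log2 fold changes 1.004 and 4.01) or WT day 15 (1.54 and 3.34). They were also lost without either *Hsf1* null day 0 library. That of *Cd177* was lost too without replicate 1 of WT day 15 (1.14), and that of *Mmp8* without replicate 1 of WT day 0 (9.17). The calls of *Retnlg* and *Cd177* in *Hsf1* null mice were lost without replicate 2 of *Hsf1* null day 0 (log2 fold changes 4.515 and 2.86). That of *Retnlg* was also lost without replicate 1 of *Hsf1* null day 0 (2.55) or replicate 1 or 2 of *Hsf1* null day 15 (4.19 and 3.34). The summed level was 344 and 185 CPM in WT day 0, 106 and 93.1 CPM in *Hsf1* null day 0, 871 and 1057 CPM in WT day 15, and 632 and 881 CPM in *Hsf1* null day 15. Most of that sum was *Cd177*, which overlapped between the genotypes at day 15 (752 and 567 CPM for WT, 627 and 859 CPM for *Hsf1* null, adjusted p = 0.795 in edgeR). Without *Cd177* the sum was 11.2 and 3.18 CPM in WT day 0, 3.86 and 3.95 CPM in *Hsf1* null day 0, 118 and 489.6 CPM in WT day 15, and 5.27 and 22.3 CPM in *Hsf1* null day 15. Replicate 2 of WT day 15 was highest in this sum as in *Cxcl5* and *Cxcr2*. *S100a8* and *Mmp8* were at 0 counts in replicate 1 of *Hsf1* null day 15, *Retnlg* and *Mmp8* in replicate 2 of WT day 0, and *S100a8* in replicate 2 of *Hsf1* null day 0. The part of neutrophil number in the chemokine values was not tested.

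The monocyte and macrophage group includes the ligands *Ccl2*, *Ccl6* and *Cx3cl1* and the receptor *Cx3cr1*. It had no member called in the main edgeR fit, which took all libraries, full counts and no block. Thinned counts called *Ccl6* between the days in WT (adjusted p = 0.0427 in edgeR). All 12 genes were tested. Between the genotypes at day 15, edgeR called 0, with 4 at an unadjusted p under 0.05, and DESeq2 called *Ccr1* higher and *Ccl6* lower. *Ccr1* was also called by edgeR without replicate 1 of WT day 15 (adjusted p = 0.0375) and was at an adjusted p of 0.551 without replicate 2. The log2 fold changes had a median of 1.07 and a range from -1.17 for *Ccl6* to 3.34 for *Ccl2*, which was 1.27 without replicate 2 of WT day 15. The median was -0.30 without replicate 2 of WT day 15, with 5 of 11 tested genes above 0, 1.84 without replicate 1 of WT day 15, and 0.30 and 2.41 without replicate 1 or 2 of *Hsf1* null day 15. In WT between the days, edgeR also called 0, with 3 at an unadjusted p under 0.05, a median of 1.07, and *Ccr2* higher and *Ccl6* lower by DESeq2. That median turned to -0.70 without replicate 2 of WT day 15, with 2 of 11 tested genes above 0, and was 2.11 and 0.48 without replicate 1 or 2 of WT day 0. The summed level, 368 and 414 CPM in WT day 0 and 332 and 484 CPM in *Hsf1* null day 0, was 258 and 350.3 CPM in WT day 15 and 387 and 394 CPM in *Hsf1* null day 15.

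*Ccl6*, a rodent chemokine that acts on macrophages through *Ccr1*, made up most of that sum in all mice but those of WT day 15. It was at 205 and 311 CPM in WT day 0, 218 and 377 CPM in *Hsf1* null day 0, 126 and 115 CPM in WT day 15, and 279.7 and 260.4 CPM in *Hsf1* null day 15. WT day 15 mice lay below all other mice. Its log2 fold change was -1.17 (SE 0.313, adjusted p = 0.0696 in edgeR) between the genotypes at day 15 and -1.10 (SE 0.314, adjusted p = 0.0587) between the days in WT. The latter was called without replicate 1 or 2 of *Hsf1* null day 0 (adjusted p = 0.0488 and 0.0481) and with counts thinned to the smallest library (0.0427). *Cx3cr1*, the receptor on resident intestinal macrophages and patrolling monocytes, had the highest CPM of the group's receptors, though per kilobase *Ccr1* was higher (3.16 against 2.82). Its level was at 22.6 and 13.9 CPM in WT day 0, 7.14 and 12.9 CPM in *Hsf1* null day 0, 9.05 and 13.5 CPM in WT day 15, and 5.27 and 17.0 CPM in *Hsf1* null day 15. The genotypes overlapped at day 15, and WT was above *Hsf1* null at day 0 by a log2 fold change of 0.93 (SE 0.57, adjusted p = 0.833), or 0.51 without replicate 1 of WT day 0 and 0.52 without replicate 1 of *Hsf1* null day 0.

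The most divergent gene of the group, *Ccl2*, which draws *Ccr2*-bearing monocytes out of the blood, was at 12 and 2.78 CPM in WT day 0, 0.657 and 3.95 CPM in *Hsf1* null day 0, 4.18 and 31.2 CPM in WT day 15, and 0.155 and 3.21 CPM in *Hsf1* null day 15. The mice of each group differed severalfold, and only at day 15 did the genotypes not overlap (log2 fold change 3.34, SE 1.24, adjusted p = 0.148 in edgeR). It was 1.27 (adjusted p = 0.702) without replicate 2 of WT day 15 and 6.69 (0.0876) without replicate 2 of *Hsf1* null day 15. It was named after its values were seen. Macrophage markers were higher in WT at day 15 in 9 of 9 genes by log2 fold change, with a median of 1.62, and *C1qa* and *Ly6c2* were called. Both calls were lost without replicate 1 or 2 of *Hsf1* null day 0 (log2 fold changes 2.16 and 3.56 in each). They were also lost without replicate 2 of WT day 15 (2.14 and 3.14), and that of *C1qa* without replicate 1 of *Hsf1* null day 15 (1.885). Without replicate 1 or 2 of *Hsf1* null day 15 the median was 0.92 or 2.50. At day 0, 7 of the 9 markers were above 0 between the genotypes (median 0.69), with 0 called by edgeR and 3 at an unadjusted p under 0.05. Their sum was 993 and 406 CPM in WT day 0, 444 and 545 CPM in *Hsf1* null day 0, 1178 and 1978 CPM in WT day 15, and 317 and 745 CPM in *Hsf1* null day 15, led by *Lyz2*, with no marker at 0. Between the days in WT, 3 of these markers (*Cd14*, *C1qa* and *Ly6c2*) were called higher, each lost without replicate 2 of WT day 0. The calls of *Cd14* and *Ly6c2* were also lost without replicate 2 of WT day 15. That of *Ly6c2* was lost too without replicate 1 of WT day 0 (log2 fold change 1.74) or either *Hsf1* null day 0 library (1.73 in each). The part of macrophage number in the chemokine values was not tested.

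For eosinophils, *Ccl11* (eotaxin) was at 3.53 and 3.97 CPM in WT day 0, 2.14 and 7.19 CPM in *Hsf1* null day 0, 7.22 and 22.7 CPM in WT day 15, and 0 and 1.87 CPM in *Hsf1* null day 15. WT day 15 mice lay above WT day 0 mice and *Hsf1* null day 15 mice below *Hsf1* null day 0 mice. The genotype difference at day 15 had a log2 fold change of 3.92 (SE 1.05, adjusted p = 0.069 in edgeR) and was called by DESeq2. In edgeR it was called with the replicate block (adjusted p = 0.0457), though mice of the same number are different animals, and without replicate 2 of *Hsf1* null day 15 (9.88, adjusted p = 0.0255), which leaves a mouse with 0 counts. *Ccl24* was at 2.52 CPM or less in every mouse, and no gene with the symbol *Ccr3*, the eosinophil receptor, is in the table, which holds genes with at least 6 counts in some mouse. Eosinophil markers were near 0: the 3 in the table summed to between 0.931 and 5.65 CPM and were led by *Siglecf*. Of these, edgeR called 0 of the 2 tested between the genotypes at day 15, with 1 at an unadjusted p under 0.05, *Il5ra* was at 0 in 4 mice, and *Prg2* was at 0 in 1 mouse. Their part was not tested.

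The group that recruits effector T cells and natural killer cells comprises *Cxcl9*, *Cxcl10* and *Cxcl11*, which are induced by interferon gamma and bind *Cxcr3*, as well as *Ccl5* and the pair *Cxcl16* and *Cxcr6*. All 7 genes were tested, and the main edgeR fit, with full counts and no block, called 0 of them in any comparison. Thinned counts called *Cxcr3* between the days in *Hsf1* null mice (adjusted p = 0.0377 in edgeR). All 7 had a log2 fold change above 0 between the genotypes at day 15 (median 1.92), with 5 at an unadjusted p under 0.05 and *Cxcl10*, *Cxcl11* and *Cxcl16* called by DESeq2. Without replicate 2 of WT day 15, 4 of the 7 were below 0, among them *Ccl5* at -0.31 and *Cxcr3* at -0.30, and the median was -0.28. At day 0 all 7 were also above 0 between the genotypes (median 0.93), with 0 called by edgeR and 1 at an unadjusted p under 0.05. Their sum was 68.3 and 48.4 CPM in WT day 0, 29.2 and 21.6 CPM in *Hsf1* null day 0, 81.7 and 383 CPM in WT day 15, and 50.3 and 78.6 CPM in *Hsf1* null day 15.

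*Cxcl16*, a membrane-bound chemokine and the ligand with the highest CPM of the group, was at 42.7 and 25.8 CPM in WT day 0, 20.9 and 15.1 CPM in *Hsf1* null day 0, 65.0 and 139.5 CPM in WT day 15, and 29.6 and 57.2 CPM in *Hsf1* null day 15. WT lay above *Hsf1* null on both days and day 15 above day 0 in both genotypes, without overlap. In edgeR the smallest of its adjusted p, 0.0586, was that between the days in WT (log2 fold change 1.55, SE 0.443). That change was 0.90 (adjusted p = 0.344) without replicate 2 of WT day 15, and it was called without replicate 1 of WT day 15 (adjusted p = 0.0325) or replicate 1 or 2 of *Hsf1* null day 15 (0.0408 and 0.0426). *Cxcr3* was at 1.86 and 1.19 CPM in WT day 0, 1.48 and 0 CPM in *Hsf1* null day 0, 3.22 and 11.4 CPM in WT day 15, and 3.10 and 4.81 CPM in *Hsf1* null day 15. Day 15 mice were above day 0 mice in each genotype, and the genotypes overlapped at day 15 (adjusted p = 0.538).

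The *Cxcr3* ligands, named after their values were seen, were high in a single mouse. *Cxcl9* was at 6.08 and 5.16 CPM in WT day 0, 1.31 and 2.16 CPM in *Hsf1* null day 0, 2.87 and 97.9 CPM in WT day 15, and 6.20 and 4.28 CPM in *Hsf1* null day 15. *Cxcl10* was at 5.78 and 11.5 CPM in WT day 0, 0.657 and 0.719 CPM in *Hsf1* null day 0, 3.48 and 54.1 CPM in WT day 15, and 5.12 and 3.34 CPM in *Hsf1* null day 15. Replicate 1 of WT day 15 was within the range of the *Hsf1* null and day 0 mice in both genes, and replicate 2 was far above it. In *Hsf1* null mice both genes were higher at day 15 than at day 0 without overlap. Their log2 fold changes there were 1.72 for *Cxcl9* and 2.62 for *Cxcl10* (adjusted p = 0.387 and 0.169 in edgeR), and DESeq2 called *Cxcl10*. *Cxcl11* was at 1.22 and 33.9 CPM in WT day 15 and at 1.76 CPM or less in the day 0 and *Hsf1* null mice. Without replicate 2 of WT day 15, the log2 fold changes between the genotypes at day 15 went from 3.26 to -0.86 for *Cxcl9*, from 2.76 to -0.28 for *Cxcl10*, and from 4.57 to 0.75 for *Cxcl11*. Without replicate 1 of WT day 15 all 3 were called (adjusted p = 0.00645, 0.0156 and 0.008). At day 0, WT was above *Hsf1* null in *Cxcl10* by a log2 fold change of 3.59 (SE 1.22), with an unadjusted p of 0.0151 and an adjusted p of 0.775 in edgeR.

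T cell markers were above 0 by log2 fold change in 6 of 6 genes between the genotypes at day 15, where edgeR called 0, with 3 at an unadjusted p under 0.05 and a median of 1.25, or 0.69 without replicate 2 of WT day 15. At day 0 the T cell markers were above 0 between the genotypes in 6 of 6 genes as well. Their median there was 1.01, with 0 called by edgeR and 1 at an unadjusted p under 0.05. *Cd3e* rose between the days in both genotypes (log2 fold change 2.49 in WT and 2.75 in *Hsf1* null). The WT call was lost without replicate 2 of WT day 0 (adjusted p = 0.131) or WT day 15 (0.105), the other without replicate 2 of *Hsf1* null day 0 (0.142) or *Hsf1* null day 15 (0.0563). The markers' sum was 38.5 and 15.9 CPM in WT day 0, 15 and 12.9 CPM in *Hsf1* null day 0, 83.6 and 140.3 CPM in WT day 15, and 35.5 and 66.2 CPM in *Hsf1* null day 15, led by *Cd4*, with no marker at 0. Natural killer cell markers summed to between 0.957 and 4.41 CPM, led by *Ncr1*, with *Klrb1c* and *Prf1* at 0 in several mice, and the 1 tested was not called. Whether these cells account for the chemokine values was not tested.

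**Figure D3:**
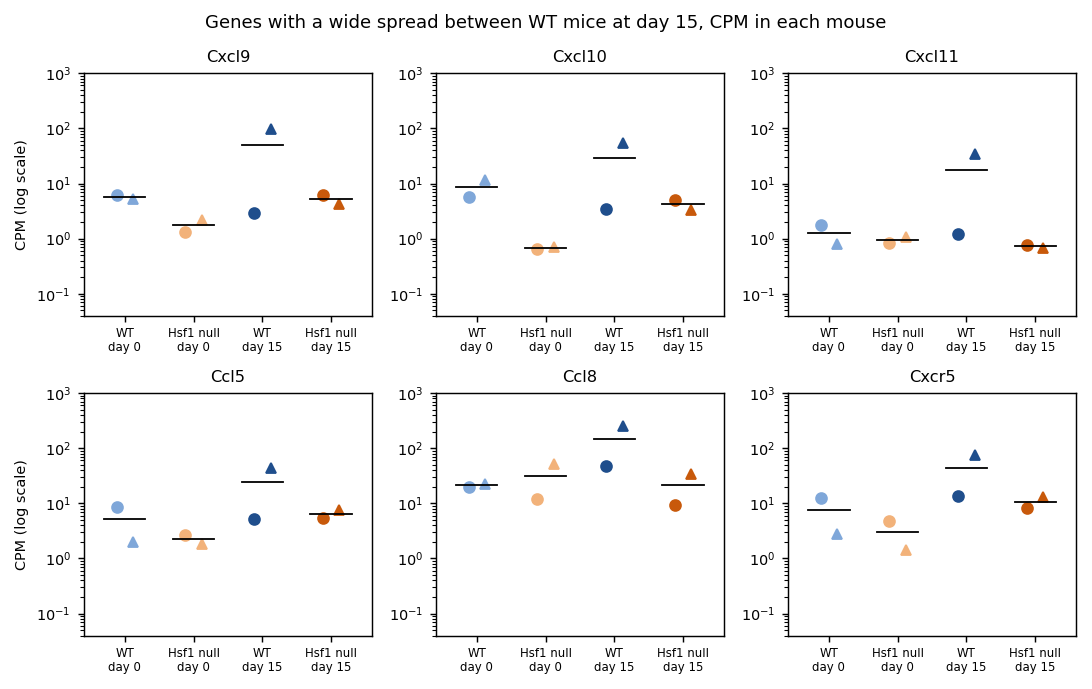
CPM (log scale, y axis) in each of the 8 mice of 6 members with a wide spread between the WT mice at day 15, with circles for replicate 1, triangles for replicate 2 and lines for the group mean. In *Cxcl9*, at 2.87 and 97.9 CPM in WT day 15, replicate 1 lies among the *Hsf1* null and day 0 mice and replicate 2 above all of them.

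Among ligands and receptors of Th2 and regulatory T cells, 2 of 6 genes were tested, *Ccl8* and *Ccl22*, and edgeR called 0 in any comparison with all libraries and no block, with *Ccl8* at an unadjusted p of 0.00944 between the genotypes at day 15 and *Ccl22* called by DESeq2 in *Hsf1* null mice. *Ccl8*, whose mouse protein binds *Ccr8*, was at 20.1 and 22.6 CPM in WT day 0, 12.2 and 51.0 CPM in *Hsf1* null day 0, 47.3 and 250.2 CPM in WT day 15, and 9.15 and 34.1 CPM in *Hsf1* null day 15. WT exceeded *Hsf1* null at day 15 without overlap. Replicate 1 of WT lay close to replicate 2 of *Hsf1* null, and replicate 2 of WT far above both. Its log2 fold change between the genotypes was 2.77 (SE 0.865, adjusted p = 0.101 in edgeR), and between the days in WT it was 2.81. These values were 1.12 (adjusted p = 0.558) and 1.16 (0.478) without replicate 2 of WT day 15. With replicate 1 of WT day 15 left out, both were called (3.525 and 3.56, adjusted p = 0.0456 and 0.0309). The replicate block, which ties mice of the same number although they are different animals, also called both (2.655 and 2.20, adjusted p = 0.0389 and 0.0373). *Ccl22* was called in *Hsf1* null mice by edgeR without replicate 1 of *Hsf1* null day 0 (adjusted p = 0.0323). *Ccr4*, the receptor of *Ccl17* and *Ccl22*, was at 1.09 CPM or less in every mouse, at 0 in 3 mice, and was not tested.

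The ligands and receptors that home lymphocytes to mucosa and skin were the group in which *Ccl28* fell. *Ccl28*, made by mucosal epithelium and a guide for IgA plasma cells, was at 84.1 and 81.8 CPM in WT day 0, 62.3 and 95.2 CPM in *Hsf1* null day 0, 30.5 and 16.4 CPM in WT day 15, and 72.4 and 52.0 CPM in *Hsf1* null day 15. Both WT day 15 mice stood below all other mice, and *Hsf1* null mice overlapped between the days. In WT it fell by 1.82 on the log2 scale (SE 0.349, adjusted p = 0.0177 in edgeR), a call lost without replicate 1 or 2 of WT day 0 (adjusted p = 0.0528 and 0.0813) or replicate 2 of WT day 15 (0.109). The alternatives gave adjusted p between 0.000104 and 0.139. Between the genotypes at day 15 its log2 fold change was -1.40 (SE 0.345, adjusted p = 0.0574), called without replicate 1 of WT day 15 (-1.92, adjusted p = 0.0414) or replicate 2 of *Hsf1* null day 15 (-1.62, 0.0439), and the difference between the genotypes in the change had an adjusted p of 0.454. *Ccr6*, the receptor of *Ccl20* on B cells and Th17 cells and the group's receptor with the highest CPM, was at 5.49 and 0.794 CPM in WT day 0, 1.97 and 2.16 CPM in *Hsf1* null day 0, 4.18 and 14.8 CPM in WT day 15, and 5.89 and 4.15 CPM in *Hsf1* null day 15. The groups overlapped except between the days for *Hsf1* null mice, and its adjusted p were 0.265 and above in edgeR.

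Over that group, the 6 tested genes had a median log2 fold change of 0.55 between the genotypes at day 15 (0 called by edgeR, 3 at an unadjusted p under 0.05, and by DESeq2 *Ccr10* higher and *Ccl25* and *Ccl28* lower) and of -0.11 between the days in WT. Between the genotypes the median was -0.13 without replicate 2 and 0.95 without replicate 1 of WT day 15. Between the days in WT it was 0.08 without replicate 1 of WT day 0 and 0.02 without replicate 1 of WT day 15. *Ccr10*, the receptor of *Ccl28*, named after its values were seen, was at 3.43 and 0.794 CPM in WT day 0, 1.31 and 1.08 CPM in *Hsf1* null day 0, 8.18 and 8.03 CPM in WT day 15, and 1.09 and 1.60 CPM in *Hsf1* null day 15. WT day 15 was above all other mice, opposite to its ligand, with an adjusted p of 0.0606 between the genotypes. Plasma cell markers followed the same order at day 15: *Jchain* and *Mzb1* of 3 genes were called higher in WT, both lost without replicate 2 of WT day 15 (adjusted p = 0.0814 and 0.118), replicate 1 of *Hsf1* null day 15 (0.0984 and 0.124) or either *Hsf1* null day 0 library (0.0517 to 0.053). The sum was 1763 and 1663 CPM in WT day 0, 491 and 1413 CPM in *Hsf1* null day 0, 2862 and 2764 CPM in WT day 15, and 60.8 and 272.8 CPM in *Hsf1* null day 15, led by *Jchain*. In *Hsf1* null mice *Jchain* fell by 2.70 on the log2 scale between the days. Its log2 fold change was -1.73 without replicate 2 of *Hsf1* null day 0 and -1.95 without replicate 1 of *Hsf1* null day 15, neither called. It was -4.30 without replicate 2 of *Hsf1* null day 15. *Tnfrsf17* was at 0 in replicate 1 of *Hsf1* null day 15. Epithelial markers, whose sum was between 6154 and 12018 CPM and led by *Krt8*, were below 0 by log2 fold change in 5 of 5 genes between the genotypes at day 15 (median -0.44, or -0.28 without replicate 1 of *Hsf1* null day 15), and edgeR called 0 in any comparison, with 0 at an unadjusted p under 0.05 at day 15. Neither cell type's part in these values was tested.

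The ligands and receptors of organized lymphoid tissue showed the highest levels in WT day 15. Their sum was 96.9 and 27.8 CPM in WT day 0, 75.1 and 36.7 CPM in *Hsf1* null day 0, 484 and 559 CPM in WT day 15, and 71.8 and 98.0 CPM in *Hsf1* null day 15. All 4 tested genes were above 0 by log2 fold change between the genotypes at day 15 (median 1.84, 1 called) and between the days in WT (median 2.51, 2 called). Without replicate 2 of WT day 15 the genotype median was 0.98, with *Ccl19* below 0 at -0.75. The median between the days in WT was 4.22 without replicate 1 of WT day 0.

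*Cxcl13*, which draws B cells into follicles through *Cxcr5*, was at 65.5 and 18.3 CPM in WT day 0, 56.8 and 30.2 CPM in *Hsf1* null day 0, 421 and 397 CPM in WT day 15, and 19.5 and 45.1 CPM in *Hsf1* null day 15. Both WT day 15 mice were close to each other and far above the other 6 mice, which overlapped. Its log2 fold change was 3.66 (SE 0.593, adjusted p = 0.021 in edgeR) between the genotypes at day 15 and 3.24 (SE 0.582, adjusted p = 0.0145) between the days in WT. In *Hsf1* null mice it was -0.45 (adjusted p = 0.605), and the difference between these changes was 3.69 (adjusted p = 0.294 in edgeR and 4.66e-05 in DESeq2). Of 18 alternatives, 13 kept the genotype call. It was lost without replicate 1 or 2 of *Hsf1* null day 0 (adjusted p = 0.0526 and 0.0517), replicate 2 of WT day 15 (0.0677) or replicate 1 of *Hsf1* null day 15 (0.128), and with the day 15 libraries alone (0.0502). The range over the 18 was 3.14e-11 to 0.128. The call between the days in WT was lost without replicate 2 of WT day 0 (0.0644) or replicate 2 of WT day 15 (0.053). Its adjusted p over the alternatives ran from 2.92e-09 to 0.12.

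*Ccr7*, the receptor that leads dendritic cells and naive T cells to lymph nodes, was at 9.70 and 5.96 CPM in WT day 0, 7.72 and 4.67 CPM in *Hsf1* null day 0, 30.7 and 33.4 CPM in WT day 15, and 12.1 and 8.43 CPM in *Hsf1* null day 15. Again WT day 15 stood above all other mice, here with *Hsf1* null day 15 above *Hsf1* null day 0. In WT the log2 fold change between the days was 1.98 (SE 0.397, adjusted p = 0.0207 in edgeR), not called without replicate 2 of WT day 0 (adjusted p = 0.146) or replicate 2 of WT day 15 (0.106). The alternatives gave adjusted p of 0.000479 to 0.171. Between the genotypes at day 15 it was 1.64 (SE 0.386), at an adjusted p of 0.0511, and was called with no filter (0.0475) or thinned counts (0.0392).

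*Cxcr5*, the *Cxcl13* receptor on B cells and follicular T cells, was at 12.3 and 2.78 CPM in WT day 0, 4.68 and 1.44 CPM in *Hsf1* null day 0, 13.8 and 73.8 CPM in WT day 15, and 8.07 and 13.1 CPM in *Hsf1* null day 15. Unlike its ligand, it was high in replicate 2 of WT day 15 alone, and its adjusted p was 0.164 between the genotypes at day 15 in edgeR. DESeq2 called it there (2.05, adjusted p = 0.0373) and between the days in WT (2.49, 0.00619). Without replicate 2 of WT day 15 its log2 fold change between the genotypes was 0.38 in edgeR. *Ccl19*, a *Ccr7* ligand named after its values were seen, was at 9.41 and 0.794 CPM in WT day 0, 5.83 and 0.359 CPM in *Hsf1* null day 0, 18.9 and 55.1 CPM in WT day 15, and 32.1 and 31.4 CPM in *Hsf1* null day 15. Day 15 was above day 0 in both genotypes without overlap, with log2 fold changes of 2.63 in WT (adjusted p = 0.0881) and 3.06 in *Hsf1* null mice (adjusted p = 0.0517), and the genotypes overlapped at day 15. The WT value was 1.67 without replicate 2 of WT day 15 and 5.51 without replicate 1 of WT day 0. In *Hsf1* null mice edgeR called *Ccl19* without replicate 1 of *Hsf1* null day 0 (6.40, adjusted p = 0.0489), with each of the 4 WT libraries left out in turn (0.0374 to 0.0457). It did so too with DESeq2's size factors (0.0488), with no filter (0.0468), with thinned counts (0.045) and in the *Hsf1* null libraries alone (0.0152). Its annotation holds 2 places on the genome under the symbol, so the value of *Ccl19* is uncertain, and exons of *Cxcr5* overlap those of *Bcl9l* on the opposite strand.

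B cell markers were above 0 by log2 fold change in 3 of 3 genes between the genotypes at day 15, or in 2 of 3 without replicate 2 of WT day 15, where edgeR called 0, with 1 at an unadjusted p under 0.05. At day 0, 3 of 3 were above 0 between the genotypes too (median 1.11), with 0 called by edgeR and 0 at an unadjusted p under 0.05. Their sum was 130 and 32.2 CPM in WT day 0, 64.2 and 8.98 CPM in *Hsf1* null day 0, 253 and 589 CPM in WT day 15, and 110.3 and 134.0 CPM in *Hsf1* null day 15, led by *Cd79a*, with no marker at 0. Dendritic cell markers, led by *Itgax*, summed to 35.2 and 13.5 CPM in WT day 0, 22.1 and 20.8 CPM in *Hsf1* null day 0, 29.4 and 78.0 CPM in WT day 15, and 32.9 and 64.1 CPM in *Hsf1* null day 15. Of the 4, edgeR called 0 between the genotypes at day 15, with 1 at an unadjusted p under 0.05. *Clec9a* was at 0 in replicate 2 of WT day 0, and the part of either cell type was not tested. Of the pair for cross-presenting dendritic cells, the receptor *Xcr1* was at 3.14 and 0.794 CPM in WT day 0, 0.903 and 5.75 CPM in *Hsf1* null day 0, 0.783 and 2.22 CPM in WT day 15, and 2.02 and 1.87 CPM in *Hsf1* null day 15. All groups overlapped, its adjusted p was 0.843 between the genotypes at day 15, and its ligand *Xcl1*, at 1.37 CPM or less, was not tested.

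The group with effects on many cell types, *Cxcl12*, *Cxcl14* and *Cxcr4*, shared the highest summed CPM in WT day 15 with that of lymphoid tissue. Its sum was 214 and 121 CPM in WT day 0, 143 and 151 CPM in *Hsf1* null day 0, 569.6 and 543 CPM in WT day 15, and 112 and 249.7 CPM in *Hsf1* null day 15. *Cxcl12*, which retains leukocytes and progenitors in tissue through *Cxcr4*, was at 117 and 79.4 CPM in WT day 0, 77.4 and 108.5 CPM in *Hsf1* null day 0, 339 and 211 CPM in WT day 15, and 31.6 and 87.1 CPM in *Hsf1* null day 15. WT day 15 mice were above all others, and the day 0 mice of both genotypes overlapped. Between the days in WT its log2 fold change was 1.48 (SE 0.447, adjusted p = 0.0692 in edgeR), and in *Hsf1* null mice -0.64 (adjusted p = 0.349). The WT change was called without replicate 1 or 2 of *Hsf1* null day 15 (adjusted p = 0.0235 and 0.0246) and in the WT libraries alone (0.0493). The *Hsf1* null change was -0.08 or -1.545 without replicate 1 or 2 of *Hsf1* null day 15 and -0.38 without replicate 2 of *Hsf1* null day 0. Its genotype call at day 15 (log2 fold change 2.21, adjusted p = 0.0362) was lost with the replicate block (adjusted p = 0.054) and without replicate 1 or 2 of *Hsf1* null day 0 (0.0769 and 0.0772), replicate 1 or 2 of WT day 15 (0.0864 and 0.088) or replicate 1 of *Hsf1* null day 15 (0.163). The adjusted p over the alternatives ran from 2.26e-05 to 0.163.

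*Cxcl14*, a chemokine made by epithelium and stroma at rest, was at 52.8 and 27.8 CPM in WT day 0, 41.6 and 30.9 CPM in *Hsf1* null day 0, 179 and 196 CPM in WT day 15, and 59.3 and 130.4 CPM in *Hsf1* null day 15. Both genotypes were higher at day 15 than at day 0 without overlap, with WT above *Hsf1* null. The log2 fold change in edgeR was 2.19 (SE 0.41, adjusted p = 0.0165) in WT and 1.37 (SE 0.403, adjusted p = 0.0501) in *Hsf1* null mice. The *Hsf1* null change was 0.69 (adjusted p = 0.249) without replicate 2 of *Hsf1* null day 15, and 1.83 (called, 0.039) without replicate 1. It was also called with DESeq2's size factors (0.0464), no filter (0.0476), edgeR's own filter (0.0497), thinned counts (0.0266), the *Hsf1* null libraries alone (0.0433) or either WT day 0 library left out (0.0476 and 0.0492). The changes in the genotypes differed by 0.82 with an adjusted p of 0.71. That difference was 0.36 or 1.49 without replicate 1 or 2 of *Hsf1* null day 15 and 1.38 or 0.46 without replicate 1 or 2 of WT day 0, so *Cxcl14* was not shown to respond differently by genotype. The WT call was lost without replicate 2 of WT day 0 (adjusted p = 0.117) or replicate 2 of WT day 15 (0.0758). It ranged from 3.3e-06 to 0.177 over the alternatives. *Cxcr4* was at 43.6 and 13.5 CPM in WT day 0, 24.4 and 11.5 CPM in *Hsf1* null day 0, 52.4 and 135 CPM in WT day 15, and 20.8 and 32.2 CPM in *Hsf1* null day 15. WT lay above *Hsf1* null at day 15, mostly through replicate 2, at an adjusted p of 0.111 in edgeR. DESeq2 called *Cxcr4* there (1.82, adjusted p = 0.0114) and between the days in WT (1.71, 0.0148). Without replicate 2 of WT day 15 its log2 fold change between the genotypes was 0.98 in edgeR.

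Fibroblasts, a main source of *Cxcl12*, were followed by 3 markers, of which edgeR called 0 between the genotypes at day 15, with 1 at an unadjusted p under 0.05 and a median of 1.21 on the log2 scale. That median was 0.61 or 2.21 without replicate 1 or 2 of *Hsf1* null day 15. Their sum, led by *Col1a1*, was 1369 and 376 CPM in WT day 0, 362 and 591 CPM in *Hsf1* null day 0, 1074 and 1102 CPM in WT day 15, and 201 and 615 CPM in *Hsf1* null day 15. *Dcn* fell by 2.18 on the log2 scale in *Hsf1* null mice between the days (adjusted p = 0.0445), or by 1.52 (0.315) without replicate 2 of *Hsf1* null day 0, 1.51 (0.134) without replicate 1 of *Hsf1* null day 15 and 3.44 (0.0461) without replicate 2. Its call was also lost without either WT day 0 library (0.053 and 0.0542). No fibroblast marker was at 0, and the part of these cells was not tested.

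Among atypical receptors, *Ackr1*, which carries chemokines across the endothelium of small veins, was at 9.80 and 6.35 CPM in WT day 0, 9.03 and 9.34 CPM in *Hsf1* null day 0, 21.8 and 19.9 CPM in WT day 15, and 4.03 and 5.22 CPM in *Hsf1* null day 15. The WT day 15 mice were the highest and the *Hsf1* null day 15 mice the lowest of the 8, with the day 0 mice between them. Its log2 fold change between the genotypes at day 15 was 2.17 (SE 0.383, adjusted p = 0.024 in edgeR). The call was lost without replicate 1 or 2 of *Hsf1* null day 0 (adjusted p = 0.0533 and 0.0528), replicate 1 or 2 of WT day 15 (0.0581 and 0.109) or replicate 1 of *Hsf1* null day 15 (0.157). Across the alternatives it spanned 0.000254 to 0.157. *Ackr1* exons overlap those of *Cadm3* on the same strand, so its counts may hold reads of that gene.

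*Ackr3*, a scavenger of *Cxcl12*, had the highest mean CPM of the group, though per kilobase *Ackr1* was higher (7.62 against 3.85). It was at 23.2 and 12.3 CPM in WT day 0, 10.1 and 21.2 CPM in *Hsf1* null day 0, 11.9 and 15.3 CPM in WT day 15, and 1.40 and 7.62 CPM in *Hsf1* null day 15. The *Hsf1* null day 15 mice were below the other 6 mice, at adjusted p of 0.194 against WT and 0.112 against *Hsf1* null day 0 in edgeR. Both were called without replicate 2 of *Hsf1* null day 15 (0.0367 and 0.0499), and thinned counts called the latter (0.0292). All 5 atypical receptors had a log2 fold change below 0 between the days in *Hsf1* null mice (median -0.98, or -0.494 without replicate 2 of *Hsf1* null day 0), where edgeR called 0, with 2 at an unadjusted p under 0.05. Between the genotypes at day 15 the median was 1.57, with 4 of 5 above 0. It was 1.019 or 2.365 without replicate 1 or 2 of *Hsf1* null day 15. Of 3 endothelial markers, *Cdh5* was called higher in WT at day 15 (log2 fold change 2.36, adjusted p = 0.0316), a call lost with either library of *Hsf1* null day 0 (0.0718 and 0.0712) or WT day 15 (0.0596 and 0.124) left out, or without replicate 1 of *Hsf1* null day 15 (0.132). Their sum, led by *Pecam1*, was 108 and 57.2 CPM in WT day 0, 73.6 and 85.5 CPM in *Hsf1* null day 0, 197 and 188 CPM in WT day 15, and 45.6 and 96.2 CPM in *Hsf1* null day 15. Lymphatic endothelial markers summed to 22.3 and 18.3 CPM in WT day 0, 14.9 and 29.1 CPM in *Hsf1* null day 0, 16.8 and 13.0 CPM in WT day 15, and 2.48 and 3.88 CPM in *Hsf1* null day 15. *Lyve1*, the marker with the higher CPM, fell by 2.77 on the log2 scale between the days for *Hsf1* null mice, a call lost without replicate 2 of *Hsf1* null day 0 (0.18) or replicate 1 of *Hsf1* null day 15 (0.0765). No endothelial marker was at 0, and the part of endothelium was not tested.

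In 3 of the 4 groups, members that differed between the mice were mostly higher in the same mouse. Of 45 members with at least 20 counts over the WT day 15 mice, 27 (60%) were more than 2-fold higher in replicate 2 and 0 in replicate 1, where 7.62% and 5.27% of all tested genes were. In *Hsf1* null day 15, 15 of 35 members (42.9%) were more than 2-fold higher in replicate 2 and 1 in replicate 1, beside 9.45% and 5.85% of all tested genes. For WT day 0, 13 of 40 members (32.5%) were more than 2-fold higher in replicate 1 and 0 in replicate 2, beside 10% and 1.77% of all tested genes. *Hsf1* null day 0 had no such direction, with 4 of 29 members higher in replicate 1 and 6 in replicate 2, beside 6.93% and 5.51% of all tested genes. Replicate 2 of WT day 15 also had the highest sum of the general leukocyte markers, which was 260 and 83.4 CPM in WT day 0, 119 and 72.9 CPM in *Hsf1* null day 0, 475 and 886 CPM in WT day 15, and 242 and 315 CPM in *Hsf1* null day 15. Of those 3 markers, led by *Laptm5*, that gene rose between the days in both genotypes. Its WT call was lost without replicate 2 of WT day 0 (adjusted p = 0.126) or WT day 15 (0.107), and its *Hsf1* null call with any day 15 or *Hsf1* null day 0 library left out (0.0505 to 0.303). No marker was at 0, and the part of leukocyte content in the members' levels was not tested.

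Genes of the chemokine pathway outside the naming scheme were taken from lists. *Pf4*, a platelet chemokine with an older name, was at 15.9 and 11.5 CPM in WT day 0, 7.88 and 14.7 CPM in *Hsf1* null day 0, 36.3 and 23.3 CPM in WT day 15, and 2.95 and 13.8 CPM in *Hsf1* null day 15, above *Hsf1* null in WT at day 15 at an adjusted p of 0.116. Of 7 cytokines that induce chemokines, 3 were tested. *Il1b* was at 2.65 and 2.38 CPM in WT day 0, 2.30 and 5.39 CPM in *Hsf1* null day 0, 11.6 and 72.6 CPM in WT day 15, and 1.86 and 4.68 CPM in *Hsf1* null day 15. It was called higher in WT than in *Hsf1* null at day 15 (log2 fold change 3.66, SE 0.827, adjusted p = 0.046 in edgeR) and rose in WT between the days (4.03, adjusted p = 0.0265), with the WT mice far apart. These were 1.81 (adjusted p = 0.301) and 2.18 (0.178) without replicate 2 of WT day 15. The genotype call was lost with any library but replicate 1 of WT day 15 left out (0.0529 to 0.301), and that in WT also without replicate 1 or 2 of WT day 0 (0.102 and 0.143). *Tnf* rose between the days in both genotypes, from 7.35 and 4.37 CPM to 35.9 and 44.9 CPM in WT (adjusted p = 0.0189) and from 4.27 and 0.719 CPM to 10.9 and 14.6 CPM in *Hsf1* null mice (adjusted p = 0.0377). The calls were lost without replicate 1 or 2 of WT day 0 (0.0535 and 0.13) or replicate 2 of WT day 15 (0.0942), and without replicate 2 of *Hsf1* null day 0 (0.18) or replicate 1 or 2 of *Hsf1* null day 15 (0.0737 and 0.104). *Il6* and *Il17a* had 0 counts in all day 0 mice and in both *Hsf1* null day 15 mice.

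Among 9 receptors for such cytokines, *Tnfrsf1b* and *Il1r1* were called higher in WT at day 15. *Tnfrsf1b* also rose between the days in both genotypes, by log2 fold changes of 2.02 and 1.27, and *Il1rap* and *Ifngr1* fell by 2.06 and 1.27 on the log2 scale in *Hsf1* null mice. Of 20 genes that carry the receptor signal, 16 were above 0 by log2 fold change between the genotypes at day 15 (median 1.015, or 0.56 without replicate 2 of WT day 15), and 1, the kinase gene *Lyn*, was called. *Rac2* and *Vav1* rose between the days in WT, and the G protein genes *Gnai1* and *Gnai3* fell by 1.69 and 1.29 on the log2 scale in *Hsf1* null mice. Of 9 genes that switch receptors off, edgeR called 0 between the genotypes at day 15, with 3 at an unadjusted p under 0.05, while *Arrb2* and *Adrbk1* rose between the days in both genotypes and *Rgs2* in WT. Of 12 genes that process or present chemokines, edgeR called 0 between the genotypes at day 15, with 4 at an unadjusted p under 0.05, *Mmp8* and *Mmp9* rose between the days in WT, and *Dpp4*, a protease that trims chemokines, fell by 1.14 on the log2 scale in *Hsf1* null mice. These calls rest on single libraries too. Between the genotypes, adjusted p without replicate 2 of WT day 15 were 0.225 for *Tnfrsf1b*, 0.15 for *Il1r1* and 0.282 for *Lyn*, whose log2 fold change went from 1.44 to 0.89. Between the days in WT they were 0.0766 for *Tnfrsf1b*, 0.221 for *Rac2*, 0.128 for *Vav1*, 0.0817 for *Arrb2*, 0.211 for *Adrbk1*, 0.132 for *Rgs2*, 0.226 for *Mmp8* and 0.173 for *Mmp9*. In *Hsf1* null mice, none of the calls was kept without replicate 2 of *Hsf1* null day 0, at 0.271 for *Tnfrsf1b*, 0.144 for *Il1rap*, 0.142 for *Ifngr1*, 0.157 for *Gnai1*, 0.172 for *Gnai3*, 0.265 for *Arrb2*, 0.184 for *Adrbk1* and 0.205 for *Dpp4*. *Mmp8* is also among the neutrophil markers, so the lists overlap in that gene.

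Many members lie in clusters of the mouse genome, here given on GRCm38. *Cxcl5*, *Cxcl3*, *Cxcl1* and *Cxcl2* lie within 146.6 kb of chromosome 5, from 90759360 to 90905938, and 3 of these 4 neighbours were called both between the genotypes at day 15 and between the days in WT. On the same chromosome, *Cxcl9*, *Cxcl10* and *Cxcl11* lie from 92321347 to 92365485, with 0 of 3 called by edgeR in either comparison, or 3 of 3 in both without replicate 1 of WT day 15, and *Cxcl10* and *Cxcl11* called by DESeq2, and *Cxcl13* lies apart at 95956951 to 95961068. Clusters of 6 and 5 Ccl genes lie on chromosome 11, from 82035571 to 82305690 and from 83525778 to 83664683. In the main edgeR fit, 0 of 5 tested genes in each were called in those comparisons, where DESeq2 called *Ccl11*, *Ccl6* and *Ccl5*. With thinned counts edgeR called *Ccl6* between the days in WT (adjusted p = 0.0427), and with the replicate block *Ccl11* and *Ccl8*. *Hsf1* lies on chromosome 15, from 76477422 to 76501913, and 0 of the 54 members are on that chromosome. Exons of *Cxcl10*, *Cxcl11*, *Cxcl16* and *Ccl25* overlap those of other genes on the opposite strand, which adds uncertainty, since the strand used for counting is not given in the sources used here.

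The promoters of *Cxcl1*, *Cxcl2* and *Cxcl13*, called genes of chromosome 5, and of the neighbour *Cxcl3* are shown because these genes had their highest levels in WT day 15. Of the 54 members, 41 had a promoter in the RefSeq table for GRCm38.p6. The 250 bases before each start were searched on both strands for the heat shock element spelled GAANNTTC and for an NF-kB motif spelled GGNNNTTCC, where N is any base. The heat shock element was in 3 of 47 member promoters (6.38%), those of *Ackr1*, *Cxcl13* and *Cxcr4*, and in 2199 of all 32851 promoters (6.69%). The NF-kB motif was in 15 of 47 member promoters (31.9%) and in 5144 of all 32851 (15.7%), and *Cxcl1*, *Cxcl2*, *Cxcl3*, *Cxcl9* and *Cxcl10* were among the 15. Of the 9 members called in any comparison, 2 held the heat shock element (*Ackr1* and *Cxcl13*) and 3 the NF-kB motif (*Ackr1*, *Cxcl1* and *Cxcl2*), while *Cxcl5* and *Ccr7* have no entry in the table and were not searched. A match is a description of letters, not a binding site, and no match says only that these letters are not in the window. The sequences below, credited to RefSeq, are 120 bases of the plus strand, 5′ to 3′, that end 31 bases before the start for *Cxcl1* (chr5:90891095-90891214), *Cxcl2* (chr5:90903749-90903868) and *Cxcl3* (chr5:90785951-90786070) and 121 bases before it for *Cxcl13* (chr5:95956699-95956818). Capitals mark the NF-kB motif on either strand in the *Cxcl1*, *Cxcl2* and *Cxcl3* sequences, 2 places in each, and the heat shock element in that of *Cxcl13*, and no place shown holds both motifs.
Cxcl1: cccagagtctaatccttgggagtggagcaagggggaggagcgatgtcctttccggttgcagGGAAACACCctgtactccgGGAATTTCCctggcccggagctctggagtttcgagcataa
Cxcl2: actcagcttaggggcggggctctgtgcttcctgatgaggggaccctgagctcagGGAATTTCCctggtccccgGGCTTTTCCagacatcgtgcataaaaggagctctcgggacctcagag
Cxcl3: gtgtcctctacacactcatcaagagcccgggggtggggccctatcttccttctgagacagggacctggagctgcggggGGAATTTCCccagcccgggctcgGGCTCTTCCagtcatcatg
Cxcl13: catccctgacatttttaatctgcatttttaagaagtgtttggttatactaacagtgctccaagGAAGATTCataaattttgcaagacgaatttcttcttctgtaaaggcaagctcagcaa

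Lists of other cell types complete the picture of the tissue. Mast cell proteases *Mcpt1* and *Mcpt2* rose between the days in both genotypes, by log2 fold changes of 3.09 and 3.56 in WT and of 4.44 and 4.22 in *Hsf1* null mice, the latter calls both lost without replicate 2 of *Hsf1* null day 0 (adjusted p = 0.123 each). The WT call of *Mcpt2* was lost without replicate 2 of WT day 0 (0.0628) or WT day 15 (0.053). The sum of the 3 mast cell markers, led by *Mcpt1*, was 14.7 and 7.94 CPM in WT day 0, 2.71 and 3.59 CPM in *Hsf1* null day 0, 112 and 106 CPM in WT day 15, and 38.2 and 83.3 CPM in *Hsf1* null day 15, with *Cpa3* at 0 in 2 day 0 mice. Of 3 smooth muscle markers, *Myh11* and *Des* fell in WT between the days, by 1.60 and 1.80 on the log2 scale, calls lost without replicate 2 of WT day 0 (adjusted p = 0.175 and 0.173) or WT day 15 (0.173 and 0.16). Their sum, led by *Acta2*, was 3788 and 4734 CPM in WT day 0, 3522 and 3232 CPM in *Hsf1* null day 0, 2167 and 1349 CPM in WT day 15, and 2779.7 and 3467 CPM in *Hsf1* null day 15. WT day 15 mice were the lowest in this sum, no marker was at 0, and the part of muscle in each sample in the members' levels was not tested.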

How the data were processed

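Gene counts were used as deposited by the authors, who aligned reads to mm10 with STAR. The counting program, strand and annotation are not given in the sources used here. Counts were normalized with TMM and fitted as 1 model of 4 groups with edgeR's quasi-likelihood test (edgeR 4.0.16, R 4.3.3), for genes with a mean normalized count above 5. DESeq2 1.42.0 was the other tool. A call needed an adjusted p under 0.05 and a log2 fold change above 1 in size. Members named singly were those called in any comparison or the ligand and receptor of each group with the highest mean CPM, which is not corrected for gene length. Members and lists were chosen with earlier results of these data known. The lists are cell markers, inducing cytokines and their receptors, signal transduction, desensitization, and processing. Alternatives were other normalization, filters, a replicate block, thinned counts and each library left out. The crossed block and the fit without both small day 0 libraries were chosen after seeing the data. The code was tested on simulated data.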

Additional observations from a re-analysis of the deposited data

Results flagged for a closer look

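For 2 members the mice of each genotype differed between the days in opposite directions. *Ackr1* and *Ccl11* were higher at day 15 than at day 0 in both WT mice and lower in both *Hsf1* null mice. Of all 14371 tested genes, 4456 were higher at day 15 without overlap in WT. In *Hsf1* null mice 4358 were lower without overlap, and the share with both was not computed. The lower *Ccl11* level in *Hsf1* null mice rests on 0 and 14 counts at day 15 against 26 and 20 at day 0. The WT change minus the *Hsf1* null change was 2.31 on the log2 scale for *Ackr1* (adjusted p = 0.337 in edgeR's quasi-likelihood test) and 4.11 for *Ccl11* (adjusted p = 0.483), so edgeR called neither. DESeq2 called that of *Ackr1* (2.33, adjusted p = 0.0498).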

How the results depend on the processing

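Members called were 6 between the genotypes at day 15, 7 between the days in WT, and 0 for *Hsf1* null mice, for day 0 and for the genotype difference in the change. DESeq2 gave 19, 17, 5, 0 and 3. With the replicate block, in which mice of the same number share a term, the counts were 7, 8, 0, 0 and 0. Between the days for *Hsf1* null mice, DESeq2 size factors gave 2, no filter 2, filterByExpr 1, only the groups compared 2 and thinned counts 4. Fitting only the groups compared gave 0 between the genotypes at day 15. Leaving out 1 library gave 0 (without replicate 1 of *Hsf1* null day 0) to 10 (without replicate 1 of WT day 15) between the genotypes at day 15. For WT between the days it gave 0 (without replicate 2 of WT day 0) to 16 (without replicate 1 of WT day 15), and for *Hsf1* null mice 0 (without replicate 2 of *Hsf1* null day 0) to 3 (without replicate 1 of WT day 15). A pair of alternatives was chosen after seeing the data. Without both day 0 libraries of replicate 2, 1 member was called between the genotypes at day 15 and 0 in WT between the days. A crossed replicate block gave 18, 16 and 5. No call changed direction. Of 18 alternatives, each of the 6 genotype calls was kept in 8 (*Cxcl2*, adjusted p 0.007 to 0.258) to 13 (*Cxcl13*, 3.14e-11 to 0.128), and each of the 7 calls in WT between the days in 14 or 15. Why these counts vary was not tested.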

Other observations

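With 2 mice per group, the spread within a group is known poorly, and the tests borrow it from other genes and groups. The replicate 2 libraries of day 0, at 2553348 and 2675976 counts, hold few counts of scarce members, and 7 of the 54 members were not tested. The labels give 10 weeks of age for all mice, and the series text gives 9.5 weeks. Counts of paralogs and of overlapping genes may hold each other's reads. No protein, cell count or histology was used, and no protein sequences were at hand to group ligands by their ELR motif.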
